A study of Mus musculus with 12 samples.

Results

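Small nuclear RNAs, Y RNAs and 7SK were counted in small RNA libraries of the mouse CA1, the hippocampal subfield that gives the main output of the hippocampus. The rows were taken by name from the table of miscellaneous small RNAs, here called the misc RNA table. The name had to start with Rnu (without the U3 rows), Rny, Y_RNA, Rn7s, 7SK or Metazoa_SRP, or to be a bare U1 to U12 name. Of 4645 named rows, 16 matched, and 15 were kept because the Rnu1b2 row held the same counts as the Rnu1b1 row in every library. They were 3 rows of U1, 1 each of U2, U5, U7, U11 and U12, 2 rows of U6, the Y RNAs Rny1 and Rny3, Rn7sk, and the rows named Rnu73a and Rnu73b. No row of 7SL, the RNA of the signal recognition particle, was taken by these names, so 7SL was not analysed here. Rnu73a and Rnu73b matched by name only. RefSeq lists Rnu73a as a synonym of Snord73a, a small nucleolar RNA. Rnu73b was matched by hand to Snord73b, to which RefSeq gives the biotype snRNA. By their C/D box form both are small nucleolar RNAs and not small nuclear RNAs, so they are described on their own.

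The libraries came from the dissected CA1 of C57BL/6J mice aged 3 to 5 months. The 6 Control libraries came from mice with floxed Kat2a alleles (Kat2a fl/fl), and the 6 Kat2a cKO libraries from mice with the same alleles and a CamKIIα-cre transgene (Kat2a fl/fl; CamKIIα-cre+). Kat2a encodes a histone acetyltransferase that acts as a transcriptional co-activator. The CamKIIα promoter drives Cre mainly in excitatory neurons of the forebrain, so glia, vessels and most interneurons in the dissected tissue keep the floxed alleles, and no group here carries Cre without them. Nothing in the labels says that each library came from a separate mouse, so p-values measure the spread between these libraries. In whole tissue, fewer cells of a type and less RNA per cell cannot be told apart. The libraries were cut from a gel band of 150 bp, while Rn7sk has 332 bases, Rnu2 187 and Rnu1b1 165. Reads of these are thus from fragments. Libraries hold adapters as well as the RNA insert, so the inserts were shorter than 150 bases. The shorter RNAs may also have been read as fragments, and the share of fragments was not tested for them. Levels below are levels of reads and need not follow those of the whole RNAs.

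Small nuclear RNAs are the RNA cores of the particles that remove introns. U1 pairs with the 5′ splice site, U2 with the branch point, and U5 and U6 take part in the catalytic steps. U11 and U12 do the work of U1 and U2 for the minor class of introns, and U7 guides the cleavage of histone messenger RNA ends. Rn7sk holds the elongation factor P-TEFb inactive together with Hexim and Larp7. Y RNAs are short hairpin RNAs bound by the Ro60 and La proteins and are a known source of small RNA fragments. C/D box RNAs guide the 2′-O-methylation of other RNAs, mostly ribosomal.

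The sequences below are GENCODE M21 transcripts (GRCm38), written 5′ to 3′ with T for U. Genes were matched to rows by name or RefSeq synonym. The Y RNAs are shown because they held most of the reads. Their capitals mark runs of 7 or more bases that both share, in a pair with 72.3% identity over the alignment and a longest shared run of 12 bases. Both genes lie on chromosome 6.
Rny1: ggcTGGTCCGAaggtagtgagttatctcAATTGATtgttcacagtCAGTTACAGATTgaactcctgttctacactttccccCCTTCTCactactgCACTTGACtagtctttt
Rny3: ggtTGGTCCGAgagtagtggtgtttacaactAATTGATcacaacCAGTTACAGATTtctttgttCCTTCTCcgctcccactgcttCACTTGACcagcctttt

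Rnu73a and Rnu73b are shown to make their C/D box form visible. Capitals mark TGATGA, the core of the C box, and CTGA, the D box. Both genes lie on chromosome 3, and the pair had 73.2% identity, with a longest shared run of 13 bases.
Rnu73a: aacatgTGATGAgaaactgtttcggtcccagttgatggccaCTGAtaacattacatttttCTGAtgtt
Rnu73b: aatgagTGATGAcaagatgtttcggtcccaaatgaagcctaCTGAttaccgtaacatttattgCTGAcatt

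Of 14149 GENCODE transcripts of 50 to 350 bases, 10.1% held both TGATGA and CTGA on the RNA strand, the only strand searched. The letters of TGATGA and CTGA can overlap in CTGATGA. Of the 14 gene sequences searched, Rnu73a and Rnu73b held both, and none of the others held TGATGA.

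The U1 rows are shown because their near identity limits what the counts can tell apart. Capitals in Rnu1b6 mark the bases that differ from Rnu1b1 in a global alignment. The identity was 98.2%, with 3 differing columns. Rnu1b1 and Rnu1b2 were identical over their 165 bases, and their rows held equal counts. All 3 genes lie on chromosome 3.
Rnu1b1: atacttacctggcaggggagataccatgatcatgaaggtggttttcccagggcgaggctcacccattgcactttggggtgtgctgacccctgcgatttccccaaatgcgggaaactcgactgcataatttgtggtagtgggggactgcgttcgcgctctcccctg
Rnu1b6: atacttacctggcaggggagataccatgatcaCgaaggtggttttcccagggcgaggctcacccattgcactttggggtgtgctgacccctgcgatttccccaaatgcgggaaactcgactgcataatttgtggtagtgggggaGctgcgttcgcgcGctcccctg

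Rnu2, Rnu12 and Rnu7 are shown with a short motif of the small nuclear RNAs. In Rnu2 capitals mark GATTTTTGG around its Sm site, the landing place of the Sm protein ring. In Rnu12 and Rnu7 they mark AATTTNT, the letters searched for the Sm site. The genes lie on chromosomes 11 (Rnu2), 15 (Rnu12) and 6 (Rnu7).
Rnu2: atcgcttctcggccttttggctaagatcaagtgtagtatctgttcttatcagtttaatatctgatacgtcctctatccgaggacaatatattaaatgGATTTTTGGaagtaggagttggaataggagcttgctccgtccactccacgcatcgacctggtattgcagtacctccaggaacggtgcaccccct
Rnu12: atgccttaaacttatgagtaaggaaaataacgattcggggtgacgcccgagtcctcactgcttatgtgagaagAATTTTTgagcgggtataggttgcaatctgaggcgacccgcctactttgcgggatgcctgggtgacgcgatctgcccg
Rnu7: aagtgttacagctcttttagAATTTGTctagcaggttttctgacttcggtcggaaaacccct

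AATTTNT was found in 8 of the 14 gene sequences searched, those of U1 (4 genes), U5, U7, U11 and U12, against 7.06% of the 14149 transcripts. GATTTTTGG was found in Rnu2 alone of these and in 0.205% of transcripts. The first 120 bases of Rn7sk are shown for the GATC repeats that Hexim binds, in capitals. Rn7sk, on chromosome 9, had 3 matches there, while 44.9% of the transcripts held GATC at least once.
Rn7sk bases 1 to 120: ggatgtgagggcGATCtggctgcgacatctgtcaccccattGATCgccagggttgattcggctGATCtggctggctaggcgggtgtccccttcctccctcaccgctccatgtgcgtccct

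A few rows did not have the span of the gene they are named for. The Rnu7 row spanned 3034 bases, against 62 for the RefSeq gene, so some of its reads may lie outside U7. The Rnu1a1 row was marked as partial, with 74 bases on chromosome 1, while RefSeq places the gene, of 164 bases, on chromosome 11. The Rnu5g row was also partial, with 52 bases on chromosome 13, against 116 bases on chromosome 9. One Rnu6 row lay on chromosome 17, like the RefSeq gene, and the other on chromosome 12, each with 107 bases. The spans of the other rows kept equalled the RefSeq lengths. The genome build of the files is not given in the sources used here, so no coordinates are printed.

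The misc RNA table held 1421733 to 5703044 reads per library with identical rows counted once. The mean was 2550445 in Control and 3348968 in cKO (n = 6 each, two-sided exact permutation test, p = 0.27). Kat2a had 23 reads in the Control and 13 in the cKO libraries of the table of all RNAs, a second count of the same libraries. That was 0 to 8 per library, and 2.23 ± 2.44 against 0.95 ± 0.97 CPM (read counts normalised to library size, SD, n = 6 each, two-sided exact permutation test, p = 0.28). A loss of Kat2a was thus not detectable at this depth in fragments of its messenger RNA, and the labels do not say which exons are deleted. All 6 CA1 and excitatory neuron markers had reads, 31 to 101 per library in sum. Markers of other cell types were present too, with 4 to 16 reads per library for microglia, 24 to 98 for oligodendrocytes, 102 to 637 for astrocytes and 37 to 578 for choroid plexus. The markers of CA3, the neighbouring subfield, had 4 to 336 reads per library in sum, with 2.42 to 57.2 CPM in Control and 3.86 to 310 CPM in cKO. The choroid plexus sum ranged from 18.6 to 151 CPM in Control and from 14.2 to 534 CPM in cKO, and its 1 tested marker had a log2 difference of 0.72, not called. Other lists reached higher in Control. The interneuron sum ranged from 4.30 to 30.4 CPM in Control and from 4.16 to 6.89 CPM in cKO. The vascular sum ranged from 2.52 to 36.9 and from 2.68 to 11.3 CPM. Of 3 tested astrocyte markers, 1 had an unadjusted p under 0.05 (edgeR) and 0 were called. No marker gene with a row was at 0 over all libraries. The part of these cells in the values below was not tested.

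The comparison of Control with Kat2a cKO asked whether any of these RNAs differed after the loss of Kat2a. None passed the test. Of the 15 rows, 13 passed the filter on low counts, and in cKO 9 had a higher and 4 a lower fitted level. Their median log2 difference was 0.15, beside -0.02 over all 850 rows tested. The largest fitted differences were those of Rnu73b at -0.30 and the 2 Rnu6 rows at 0.24 and 0.25 on the log2 scale, each with a 95% interval that included 0.

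Over the whole table edgeR called 0 of 850 rows at an adjusted p of 0.05 (0%), and 27 rows had an unadjusted p under 0.05 (3.18%). Of the 13 tested members 0 were called and 0 had an unadjusted p under 0.05. The smallest adjusted p among them was 0.933. DESeq2 called 1 row of the table (0.118%), AI506816, which is not one of these RNAs. Fitted levels were higher in cKO for 47.1% of all rows, and for 9 of the 13 members. These 9 were not independent, since they included 2 near-identical U1 rows and 2 near-identical U6 rows. With 1 row per RNA and without the U73 rows, 6 of 9 were higher, with a median of 0.15. In no member did the 2 genotypes fail to overlap, beside 0.353% of all rows. In simulated counts of the 850 rows, 67 were changed 1.5-fold, 67 were changed 2-fold and 66 were changed 4-fold. The same test recovered 17.9%, 58.2% and 92.4% of them. With fewer changed rows the adjustment is stricter, so these shares can overstate what the test would find in the real table.

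**Figure D1:**
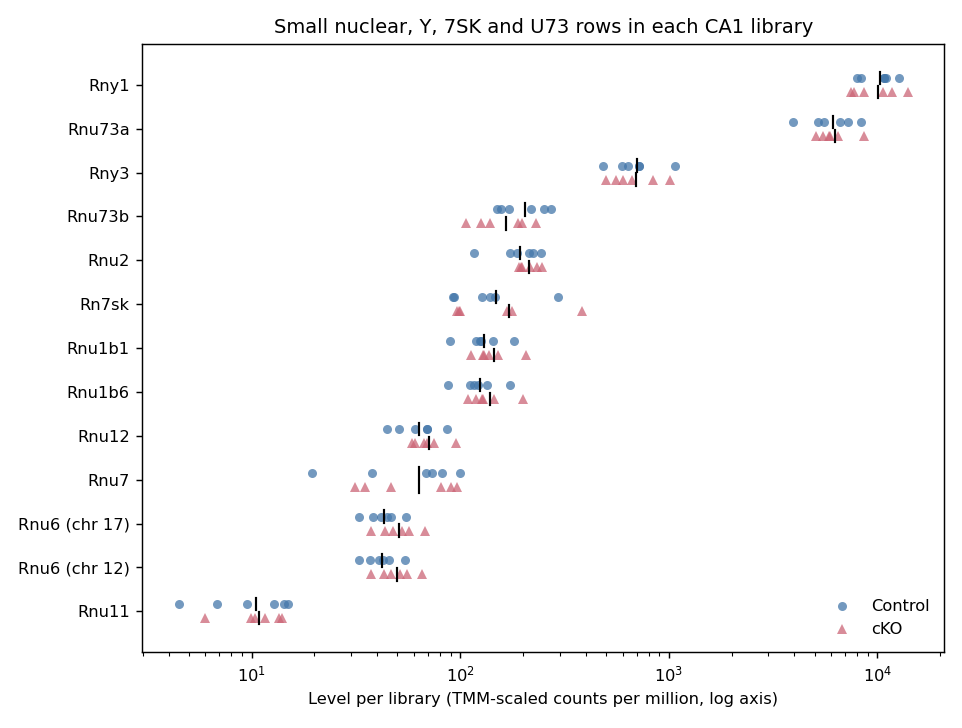
TMM-scaled CPM of each tested row in each library on a log axis, Control as circles and cKO as triangles, with the group mean as a short line (n = 6 each). Rny1 and Rnu73a stand above all other rows, and for every row the genotypes overlap.

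The Y RNAs held most of the reads of the group, nearly all of them on Rny1. Rny1 had 339689 reads over the 12 libraries, 55.3% of the 613905 reads of all members, and Rny3 had 23193 (3.78%). Per base of the gene, the mean Control level was 92.4 CPM for Rny1 and 6.98 CPM for Rny3. For neither did the genotypes differ by more than the spread between libraries.

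Rny1 had 7951 CPM in the lowest, 10791 in the median and 12634 in the highest Control library, and 7441, 9597 and 14005 in cKO. The groups overlapped over nearly their whole range, and 3 of 6 cKO libraries exceeded the mean of Control. The means were 10251 ± 1777 and 10013 ± 2561 CPM (SD, n = 6 each), a log2 difference of -0.03 ± 0.19 (SE) with a 95% interval from -0.43 to 0.36. On a linear scale this interval runs from 0.741 to 1.29 times the Control level.

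Rny3 had 484 CPM in the lowest, 677 in the median and 1073 in the highest Control library, and 501, 632 and 1011 in cKO. Control 2 and cKO 1 were the highest of their groups. The means were 705 ± 200 and 696 ± 194 CPM, and the log2 difference was -0.02 ± 0.22 (95% interval -0.49 to 0.45). The direction of both Y RNAs was not fixed. It turned when some libraries were left out, and when copies of other RNAs were summed. In that summed fit the counts of the Y RNAs stayed the same, while the median over all rows was 0.05. Neither Y RNA was called in any of these fits.

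The U73 rows, named as small nuclear RNAs but of C/D box form, held the next largest part of the reads. Rnu73a had 214831 reads (35.0% of the member reads) and a mean Control level of 90.3 CPM per base, close to that of Rny1, while Rnu73b had 6202 reads and 2.86 CPM per base. Rnu73a ranged from 3929 to 8367 CPM in Control (median 6066) and from 5047 to 8603 in cKO (median 5906). The groups overlapped, and the log2 difference was 0.02 ± 0.19 (95% interval -0.39 to 0.44).

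Rnu73b had 150.5, 195 and 273 CPM in the lowest, median and highest Control library, and 107, 164 and 231 CPM in cKO. In 5 of 6 cKO libraries it lay under the mean of Control, although the groups overlapped over most of their range. Its means were 203 ± 51.8 and 165 ± 47.8 CPM, and its log2 difference of -0.30 ± 0.23 had the smallest unadjusted p of the members (0.22, adjusted p = 0.933, edgeR). The 95% interval ran from -0.80 to 0.20, so a fall to 0.575 times the Control level lay within it.

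Among the RNAs of the major spliceosome none passed the test. U1, U2 and U6 had fitted levels that were somewhat higher in cKO, with intervals that included 0. Per base, the mean Control level was 1.03 CPM for Rnu2, 0.791 for Rnu1b1 and 0.404 for the Rnu6 row on chromosome 17, all below the Y RNAs.

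Rnu2 had 117, 199.7 and 244 CPM in the lowest, median and highest Control library and 192, 207 and 246 in cKO. The mean of Control was exceeded by 5 of 6 cKO libraries. That mean was held down by 1 low library, Control 1. The means were 193 ± 45.1 and 214 ± 22.5 CPM, and the log2 difference was 0.15 ± 0.19 (95% interval -0.25 to 0.55). Without Control 1 it was 0.014.

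Rnu1b1 had 89.2, 125 and 182 CPM in the lowest, median and highest Control library and 112, 134 and 207 in cKO. Control 3 and cKO 3 were the highest and the groups overlapped, with 3 of 6 cKO libraries over the mean of Control. The log2 difference was 0.15 ± 0.21 (95% interval -0.30 to 0.59), and without cKO 3 it was -0.0099. Rnu1b6 followed it in every library, with 0.929 to 0.978 reads for each read of Rnu1b1, and had a log2 difference of 0.16 ± 0.21. With 98.2% identity, and with Rnu1b1 and Rnu1b2 at equal counts in every library, a read may have been counted on each row it fits. Which U1 gene the reads came from is uncertain, and sums over the members may hold such reads more than once. The Rnu1a1 row had 75 reads in all, with 2.42 ± 1.39 CPM in Control and 1.98 ± 1.58 CPM in cKO, and did not pass the filter.

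The Rnu6 row on chromosome 17 had 32.9, 43.2 and 55.2 CPM in the lowest, median and highest Control library and 37.3, 50.1 and 68.0 in cKO. The groups overlapped, with 5 of 6 cKO libraries over the mean of Control. Its means were 43.2 ± 7.62 and 51.1 ± 10.8 CPM and its log2 difference 0.24 ± 0.20 (95% interval -0.19 to 0.67, adjusted p = 0.933). The row on chromosome 12 had 0.965 to 1 reads for each of these in every library and a log2 difference of 0.25 ± 0.20, so both rows largely count the same RNA. Summed into 1 row, U6 had 82.8 ± 13.5 and 104 ± 19.6 CPM, with a log2 difference of 0.33 ± 0.19 (edgeR, unadjusted p = 0.10, adjusted p = 0.893). Such a sum may hold the same read from both rows. In that fit the scaling of the libraries also shifted, with a median over all rows of 0.05.

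The Rnu5g row had 54 reads in all, with 1.58 ± 0.61 CPM in Control and 1.42 ± 0.34 CPM in cKO, and was not tested. Rnu1a1 and Rnu5g were the only members outside the filter, while the nearest inside it were Rnu11 with 385 reads and the Rnu6 row on chromosome 12 with 1690.

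The minor spliceosomal RNAs U11 and U12 did not pass the test either. Rnu12 had 44.8, 64.8 and 86.2 CPM in the lowest, median and highest Control library and 58.9, 67.9 and 95.9 in cKO. The groups overlapped, with 4 of 6 cKO libraries over the mean of Control. The log2 difference was 0.16 ± 0.21 (95% interval -0.28 to 0.61).

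Rnu11 had 4.48, 11.1 and 14.98 CPM in the lowest, median and highest Control library and 5.97, 10.97 and 14.1 in cKO. Its log2 difference was 0.08 ± 0.30 (95% interval -0.56 to 0.71), on 8 to 61 reads per library. Per base, the Control level was 0.423 CPM for Rnu12 and 0.097 CPM for Rnu11. GENCODE gives Rnu11 134 bases and the row spans 108.

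Rnu7 and Rn7sk varied most between libraries among the tested rows. Over all 12 libraries the coefficient of variation was 44.1% for Rnu7 and 56.6% for Rn7sk, against 17.6% to 32.7% for the other 11. Rnu7 had 19.4, 71.0 and 99.95 CPM in the lowest, median and highest Control library and 31.2, 63.8 and 96.3 in cKO. The group means were nearly equal, at 63.5 ± 29.6 and 63.3 ± 29.0 CPM. The log2 difference was 0.00 ± 0.39, with a 95% interval from -0.83 to 0.83 or from 0.563 to 1.78 times the Control level.

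Rn7sk had 92.5, 133 and 295 CPM in the lowest, median and highest Control library and 96.0, 134 and 382 CPM in cKO. One library of each genotype stood far above the rest, Control 2 at 295 and cKO 1 at 382, with the next at 147 and 178. These were also the 2 libraries with the fewest reads, 1421733 and 1430426. The means were 149 ± 75.2 and 170 ± 110 CPM, and the log2 difference was 0.19 ± 0.38 (95% interval -0.62 to 0.998, adjusted p = 0.933). Which of the 2 libraries was left out set the direction. Without Control 2 the log2 difference was 0.56, and without cKO 1 it was -0.27. Without either, a check chosen after seeing the data, it was 0.21 in a fit with its own scaling, where the median over all rows was 0.11. None of these passed the test. Per base, the mean Control level of Rn7sk was 0.449 CPM.

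**Figure D2:**
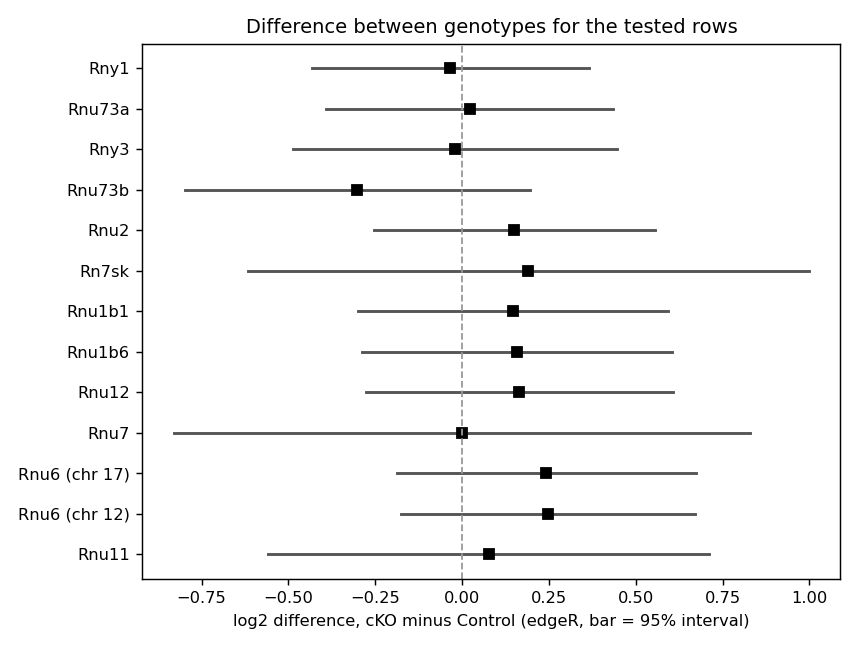
Fitted log2 difference between Kat2a cKO and Control for the 13 tested rows (edgeR, n = 6 each), with the 95% interval as a bar. Each interval includes 0, and those of Rn7sk and Rnu7 are the widest.

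The replicate numbers fell into 2 sets, 1 to 3 and 4 to 6, that differed in level for some of these RNAs. The labels name no batch, and earlier results of these libraries had shown that the sets differ, so the values are given as a description with no test. Rn7sk was at 139 to 382 CPM in the 6 libraries numbered 1 to 3 and at 92.5 to 128 CPM in those numbered 4 to 6. It was the only member without overlap between the sets, beside 1.41% of all rows. The log2 difference, set 4 to 6 minus set 1 to 3, was -1.09 ± 0.26 (SE) in a fit with genotype. Control 2 at 295 CPM and cKO 1 at 382 CPM both belong to numbers 1 to 3. The other libraries of that set lay at 139 to 178 CPM, and the set difference was not fitted without these high libraries. Rnu7 went the other way, with 1.02 ± 0.29, from 19.4 to 81.8 CPM in the first set and from 68.4 to 99.95 CPM in the second. A difference over 1 on the log2 scale in either direction was seen for 3.76% of all rows. In the table of all RNAs, Rn7sk lay at 22.4 to 35.0 CPM in Control and 20.7 to 50.8 CPM in cKO. Rnu7 lay there at 20.2 to 37.6 and 21.1 to 47.1 CPM. The sets were not compared in that table, so the set differences above hold for the misc RNA table only.

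Rny3 had -0.49 ± 0.17, Rnu1b1 -0.40 ± 0.17 and Rnu1b6 -0.40 ± 0.17 between the sets, and Rny1 had -0.25 ± 0.17. The rest lay between -0.13 for Rnu12 and 0.31 for Rnu11. Each set was also fitted alone, with its own scaling. There 54.9% of all rows were higher in cKO in numbers 1 to 3 and 59.4% in numbers 4 to 6. In the fit of all libraries the share was 47.1%. The genotype difference of Rny1 was 0.31 within numbers 1 to 3 and -0.25 within numbers 4 to 6. On the scale of the fit of all libraries, the 3 cKO libraries of numbers 4 to 6 had a mean of 7932 CPM, against 10657 in Control. In numbers 1 to 3 the means on that scale were 12094 CPM in cKO and 9845 in Control. Rnu7 turned as well, with -0.28 in numbers 1 to 3 and 0.28 in numbers 4 to 6, as did Rnu73a (0.36 and -0.12) and Rnu73b (0.038 and -0.44). Rnu2 stayed higher in cKO in both sets (0.19 and 0.27), as did Rnu1b1 (0.13 and 0.32), Rnu12 (0.16 and 0.33) and the Rnu6 row on chromosome 17 (0.33 and 0.30). None passed the test in either set, where 3 libraries stand against 3.

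**Figure D3:**
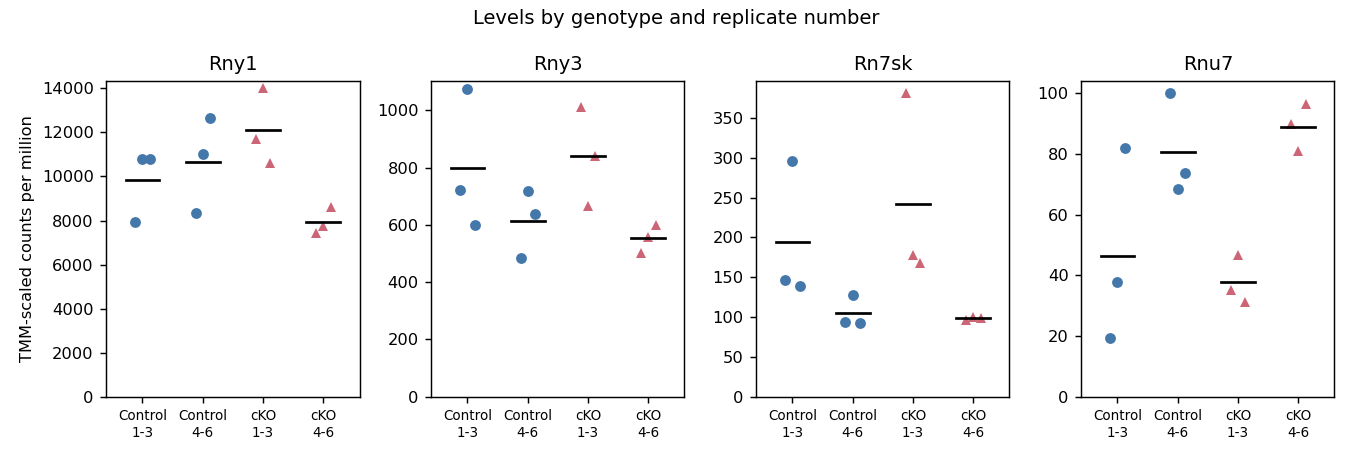
TMM-scaled CPM of Rny1, Rny3, Rn7sk and Rnu7 by genotype and set of replicate numbers, with each library as a point and the mean as a line (n = 3 each). Rn7sk is higher in all libraries numbered 1 to 3 than in any numbered 4 to 6, and in cKO Rnu7 shows the reverse.

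The members together held 1.88 ± 0.19% of the reads of the misc RNA table in Control and 1.71 ± 0.24% in cKO (SD, n = 6 each), with 1.34% to 2.12% in single libraries. The Y RNAs held 1.14 ± 0.13% and 1.01 ± 0.20%, and the U73 rows 0.653 ± 0.105% and 0.604 ± 0.059%. The small nuclear RNAs with Rn7sk held 0.0864 ± 0.0159% and 0.0874 ± 0.0108%. In each case the difference of the means was smaller than the larger of the 2 SDs. These shares are not scaled by TMM, so they move with all other rows of the table.

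Ratios of 2 RNAs within a library do not depend on that scaling. The pairs were chosen after the values had been seen, and the reads were not divided by length. The ratio of Rny1 to Rny3 was 15.2 ± 3.92 in Control and 14.7 ± 3.34 in cKO (SD, n = 6 each, two-sided exact permutation test, p = 0.87 on the log2 ratio). The ratio of Rnu73a to Rnu73b was 30.8 ± 7.48 and 42.3 ± 21.1 (exact permutation p = 0.28), with 80.3 in cKO 2 as the highest. The minor pair Rnu12 to Rnu11 had 6.98 ± 2.83 and 6.85 ± 1.75 (exact permutation p = 0.86), and the major pair Rnu2 to Rnu1b1 had 1.53 ± 0.50 and 1.54 ± 0.35 (exact permutation p = 0.91). Adjusted over the 4 ratios each p was 0.911, where the smallest p that 6 against 6 libraries can give is 0.0022. The genotypes overlapped in all 4 ratios.

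**Figure D4:**
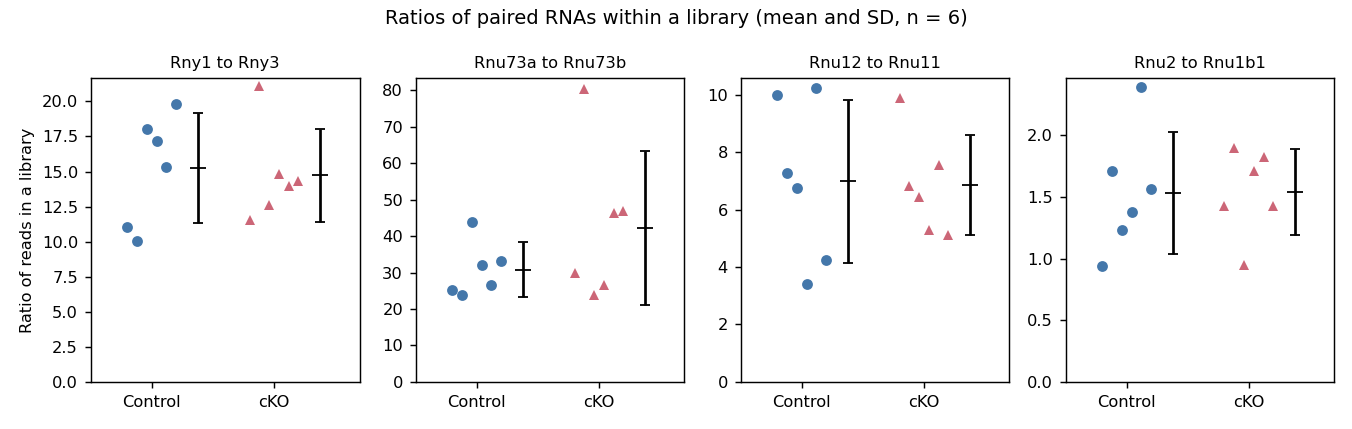
Ratio of the reads of 2 RNAs in each library for 4 pairs, Control as circles and cKO as triangles, with mean and SD beside them (n = 6 each). The groups overlap in each pair, and the ratio of Rnu73a to Rnu73b in cKO 2 (80.3) stands above the other libraries.

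The same libraries were counted a second time on RefSeq transcripts, in a table of all RNAs with 35230 rows and 1119938 to 4464600 reads per library. The run numbers at the head of its columns match no title, so its libraries are known by group only, and they were given letters. There, 14 of 15 rows of the same RNAs were tested, 0 were called (0% of 1846 rows tested) and 0 had an unadjusted p under 0.05 (4.39% of all rows). The fitted level was higher in cKO for 7 of the 14, beside 47.6% of all rows, and their median log2 difference was -0.01, beside -0.02 over all rows. DESeq2 called 10 rows of this table (0.542%), none of them a row of these RNAs.

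Rny1 had 1798 ± 217 CPM in Control and 1627 ± 360 in cKO there (SD, n = 6 each), a log2 difference of -0.14 ± 0.17. Rny3 had 430 ± 79.9 and 411 ± 94.8 CPM, with -0.06 ± 0.19. Neither Y RNA differed beyond the spread between libraries in either table. Rn7sk had 28.5 ± 4.41 and 33.1 ± 12.7 CPM, with 0.21 ± 0.28. Its Control libraries lay between 22.4 and 35.0 CPM, a narrower range than in the misc RNA table, and its cKO libraries between 20.7 and 50.8 CPM. Rnu7 had 27.1 ± 7.01 and 33.2 ± 9.11 CPM, with 0.29 ± 0.26.

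Rnu5g, with few reads in the misc RNA table, could be tested here. It had 61.0 ± 22.2 CPM in Control and 61.9 ± 14.3 in cKO, a log2 difference of 0.02 ± 0.27. Rnu1a1 could be tested too, with 8.76 ± 2.06 and 10.5 ± 2.26 CPM and 0.26 ± 0.24. Rnu2, listed as Rnu2-10, had 125 ± 12.2 and 126 ± 13.3 CPM, with 0.00 ± 0.15, the smallest SE of the 14. Rnu6 had 0.36 ± 0.44, Rnu12 -0.03 ± 0.26, Rnu11 -0.03 ± 0.28, Snord73a -0.16 ± 0.23 and Snord73b -0.20 ± 0.29 on the log2 scale.

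Rnu1b1 and Rnu1b2, equal in the misc RNA table, were counted apart in the table of all RNAs, and the split varied from library to library. Rnu1b1 held between 21.9% and 93.2% of their summed reads, although their sequences are identical. Its log2 difference was 0.20 ± 0.41 and that of Rnu1b2 -0.19 ± 0.74, so neither is a measure of 1 gene. Their sum had 272 ± 51.3 CPM, not scaled by TMM, in Control and 296 ± 50.7 in cKO (SD, n = 6 each, two-sided exact permutation test, p = 0.41).

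The tables gave very different numbers of reads for the same RNA. Snord73a had 214831 reads in the misc RNA table as Rnu73a and 501 in the table of all RNAs, a ratio of 429. The ratio was 63.5 for Rnu1b6, 38.3 for Snord73b, 7.27 for Rny1, 5.94 for Rn7sk and 2.05 for Rny3. It was 0.278 for Rnu1a1 and 0.030 for Rnu5g, the rows with partial spans. How a read that fits several rows was counted is not given in the sources used here, and the part of this in the ratios was not tested. Levels per base above therefore hold for the misc RNA table.

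**Figure D5:**
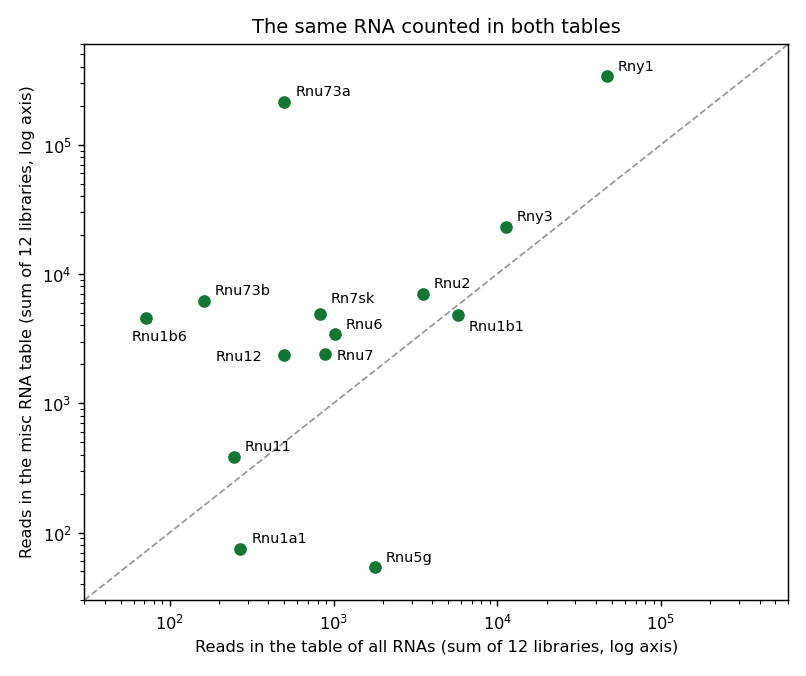
Reads of each RNA summed over the 12 libraries in the misc RNA table against the table of all RNAs, on log axes, with equal numbers on the dashed line. Rnu73a (214831 against 501 reads) lies farthest above the line and Rnu5g (54 against 1795) farthest below it.

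The protein partners of these RNAs were followed as fragments of their messenger RNAs in the table of all RNAs, with few reads. Of 46 genes of small nuclear ribonucleoproteins and their assembly, 2 were tested, each fitted higher in cKO, and 0 were called. Prpf8, the core protein of the U5 particle, had 12.7 ± 12.4 and 12.9 ± 12.1 CPM, with a log2 difference of 0.02 ± 0.67. Snrnp200, the helicase that unwinds U4 from U6, had 7.63 ± 3.37 and 11.9 ± 4.93 CPM, with 0.65 ± 0.35 (unadjusted p = 0.091, adjusted p = 0.9999). It ranged from 4.42 to 14.04 CPM in Control and from 5.79 to 18.8 CPM in cKO, so the groups overlapped.

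Of the 15 names on the list for transcription and 3′ end processing of small nuclear RNAs, 14 had a row and 2 were tested, 0 of them called. Ell, an elongation factor of the complex that acts on small nuclear RNA genes, had 0.06 ± 0.34, and Ice1, a scaffold of the same complex, 0.21 ± 0.53. None of the 7 genes of 7SK partners passed the filter, with 7 to 42 reads per library in sum. The same held for the Ro60 and La genes, with 1 to 14 reads, and for the 8 genes of signal recognition particle proteins, with 13 to 62 reads. At this depth a difference in these partners was not detectable.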

How the data were processed

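The 6 Control and 6 Kat2a cKO libraries of CA1 small RNA were made with Illumina small RNA kits from a gel band of 150 bp, per the labels' protocols. The tables deposited by the authors hold raw read counts per row, as their whole-number values show. CASAVA is named in the submitters' processing notes, its version not stated. Aligner, annotation and genome build are not given in the sources used here.

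The member rows and gene lists were chosen with earlier results of these data known. Rows without reads were dropped and identical rows kept once, which left 1863 rows of the misc RNA table. Counts were analysed with edgeR 4.0.16 in R 4.3.3 (filterByExpr, TMM, quasi-likelihood fit on genotype, two-sided test, Benjamini-Hochberg adjustment over all rows tested, threshold 0.05). CPM are read counts normalised to library size, scaled by TMM factors unless stated, intervals cover 95%, and they hold for library spread and counting error, since reads carry no molecular identifiers. The table of all RNAs, where 26081 of 35230 rows matched a RefSeq symbol, was analysed in the same way. Single values were compared by exact permutation over 924 assignments (SciPy 1.17.1).

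Named members were, by rule, the row with most reads of each RNA, the 8 tested rows of smallest p, and the rows nearest the filter. The remaining members are named because there are few. From the table of all RNAs, every tested row of these RNAs and the tested partner genes with most reads were named. Alternatives were other scalings, filters, DESeq2 1.42.0, voom (limma 3.58.1), a replicate block, the sets of replicate numbers, identical rows kept, copies summed, and each library left out. Of 114 calls on simulated counts of the misc RNA table, 2 were false. The miRNA table was used for library totals only, without 1 unnamed row (0.00015% of its reads).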

Additional observations from a re-analysis of the deposited data

Results flagged for a closer look

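In each group of 6 libraries the distance from the highest or lowest library to its neighbour was set against the range of the group, and compared with Dixon's limit for 6 values. Of 76 groups, 4 passed it, where chance alone gives about 3.8 at 1 in 20.

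The Rn7sk level in the misc RNA table stood apart once in each genotype. Control 2 had 295 CPM and the next Control library 147, a gap of 0.732 of the range. In cKO, library 1 had 382 CPM and the next 178, a gap of 0.714. In the table of all RNAs the Rn7sk level passed the limit in neither genotype. The ratio of Rny1 to Rny3 in cKO was 21.1 in library 2 and 14.9 in the next, a gap of 0.654. Rnu1a1 in the table of all RNAs had 12.4 CPM, not scaled by TMM, in Control library e and 8.62 in the next, a gap of 0.677.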

How the results depend on the processing

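No member passed the edgeR, DESeq2 or voom test in any of the 26 settings of the misc RNA table. The members higher in cKO numbered 7 to 12 and their median was 0.01 (without Control 1) to 0.28 (Control 2 and cKO 1 both left out, added after seeing the data). Over all rows DESeq2 gave 1 call in the misc RNA table and 10 in the table of all RNAs, where leaving out 1 library gave 0 to 2. The 1 call came without Control library d and the 2 without cKO library a. The median of all rows went from -0.08 when scaled by the miRNA and misc RNA totals to 0.11 with both small libraries left out.

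Of 338 member values, 48 had another direction than reported, none of them called, and the cause was not tested. Rnu7 had 0.028 by RLE factors and by DESeq2, 0.024 by the miRNA and misc RNA total, 0.12 by the miRNA total, 0.053 without a filter, 0.025 at 10 counts in 6 libraries, 0.036 with identical rows kept, 0.10 with copies summed, 0.28 in numbers 4 to 6 and 0.14 without both small libraries. Rnu73a had -0.0063 by the miRNA and misc RNA total, -0.10 by voom and -0.12 in numbers 4 to 6. Rny3 had 0.017 by voom, 0.084 in numbers 1 to 3, 0.020 in numbers 4 to 6, 0.038 with copies summed and 0.13 without both small libraries. Rny1 had 0.31 in numbers 1 to 3, 0.050 with copies summed and 0.072 without both small libraries, and Rnu73b 0.038 in numbers 1 to 3. Rnu7, Rny1 and Rny3 have no copies among the rows, so with copies summed their own counts stayed the same.

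Leaving out 1 library moved the log2 difference of Rnu7 from -0.16 to 0.34, Rny3 from -0.18 to 0.23, Rny1 from -0.11 to 0.14, Rnu73a from -0.075 to 0.16 and Rnu11 from -0.084 to 0.37. It moved Rn7sk from -0.27 to 0.56, Rnu1b1 from -0.0099 to 0.27 and Rnu1b6 from -0.0035 to 0.28. Rnu2, Rnu12 and both Rnu6 rows stayed higher in cKO in all 26 settings, Rnu2 by as little as 0.014 without Control 1.

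The labels do not say whether the replicate numbers pair the libraries, and correlations of 6 pairs cannot settle it. Same-numbered libraries had correlations of -0.15 to 0.31, 4 of 6 above 0.1, and for 1 of 6 the library of the same number was the closest. With the number as a block 0 rows were called, 48 had an unadjusted p under 0.05, 10 members were higher with a median of 0.11, and Rnu7 had 0.043.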
